A study of Homo sapiens with 6 samples.

Results

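DLX1, DLX2, DLX5, DLX6, LHX6, LHX8, SP8 and SP9 are transcription factor genes of the embryonic ventral forebrain and of the inhibitory interneurons that arise there. They were chosen by name: the entries of the deposited count table whose Ensembl identifier maps to one of these symbols, which gave 8 of 61853 entries. RNA came from H9, an established line of human embryonic stem cells, in 2 states with 3 libraries each. Day 30 cells had been turned into arcuate neurons, the neurons of a nucleus at the base of the hypothalamus. During that time they received sonic hedgehog and purmorphamine, which activate hedgehog signalling, SB431542 and LDN-193189, which block TGF-beta and BMP receptor kinases, then the Notch pathway blocker DAPT with B-27 supplement, and at the end BDNF. Day 0 cells were undifferentiated H9 cells. The labels name no altered allele, both states came from the same line, each library is bulk RNA of a whole culture, and the labels do not say whether replicates were separate cultures, so p-values measure the spread between these libraries only. The study concerned pre-rRNA processing and the nucleolus, and these genes were not among its stated subjects.

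DLX genes code for homeodomain proteins and sit as convergently transcribed pairs that share enhancers. In the mouse, Dlx1 and Dlx2 act in progenitors of the ganglionic eminences and Dlx5 and Dlx6 mostly later, and together they promote the GABAergic fate and the migration of interneurons. LHX6 and LHX8 are LIM homeodomain proteins that act after NKX2-1 in the mouse medial ganglionic eminence, where Lhx6 marks migrating cortical interneurons and Lhx8 forebrain cholinergic neurons. SP8 and SP9 are zinc finger proteins of the ganglionic eminences and the olfactory bulb lineage. DLX genes are also active in hypothalamic GABAergic neurons, and DLX5 and DLX6 in neural crest, placodes and bone.

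The DLX genes of the set form 2 clusters. DLX1 and DLX2 lie tail to tail on chromosome 2, DLX1 at chr2:172084740-172089677 on the plus strand and DLX2 at chr2:172099439-172102900 on the minus strand, with 9761 bases between them (hg38, GENCODE 29). DLX6 lies at chr7:97005548-97011039 on the plus strand and DLX5 at chr7:97020392-97024950 on the minus strand, 9352 bases apart. The long noncoding gene DLX6-AS1, at chr7:96955141-97014065 on the minus strand, spans the whole body of DLX6 on the other strand and shares no exonic base with it. RefSeq windows of 250 bases before the start (GRCh38.p14) were found for 6 of the 8 genes and for DLX6-AS1. The windows of DLX2, DLX6 and DLX6-AS1 are shown because DLX6 and DLX6-AS1 are read in opposite directions from nearby starts and differ in base composition, and because, of the DLX1, DLX2 and DLX6 windows, the one of DLX2 alone held a searched motif. Capitals mark a GC box (GGGCGG, printed as its reverse complement CCGCCC) in DLX2 and a homeodomain core (TAATTA) in DLX6-AS1, and each sequence ends at the base before the start.
DLX2, chr2:172102901-172103150, minus strand: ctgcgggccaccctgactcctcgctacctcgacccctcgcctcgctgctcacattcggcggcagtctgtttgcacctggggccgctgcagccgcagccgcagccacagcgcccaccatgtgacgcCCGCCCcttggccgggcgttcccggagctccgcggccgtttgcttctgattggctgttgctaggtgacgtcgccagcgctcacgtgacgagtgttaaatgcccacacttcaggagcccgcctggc
DLX6, chr7:97005303-97005552, plus strand: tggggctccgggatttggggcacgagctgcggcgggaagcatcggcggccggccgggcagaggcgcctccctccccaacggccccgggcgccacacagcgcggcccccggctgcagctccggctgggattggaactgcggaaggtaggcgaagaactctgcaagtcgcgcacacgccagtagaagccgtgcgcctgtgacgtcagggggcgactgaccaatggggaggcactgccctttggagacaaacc
DLX6-AS1, chr7:97014066-97014315, minus strand: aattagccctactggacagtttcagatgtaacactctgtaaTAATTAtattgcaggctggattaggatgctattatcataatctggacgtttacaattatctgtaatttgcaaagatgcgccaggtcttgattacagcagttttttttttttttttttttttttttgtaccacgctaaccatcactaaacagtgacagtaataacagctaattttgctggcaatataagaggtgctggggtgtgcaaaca

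The DLX2 and DLX6 windows are rich in G and C (68.0% and 70.0%) and hold 25 CpG each, whereas the DLX6-AS1 window has 35.2% and 3 CpG. Over 35116 promoter windows of this length the median was 58.0% and 11 CpG. The GC box of DLX2 begins 125 bases before the start, and the TAATTA of DLX6-AS1 begins 209 bases before it. Motifs were searched on both strands, and 42.6% of all windows held GGGCGG, 4.35% TAATTA, 13.99% the E-box CAGCTG and 9.50% CAAGTG, a core bound by NK-2 class factors such as NKX2-1. SP8 held 3 GC boxes, 1 of the LHX6 windows held 2, and 1 of the LHX8 windows held both CAGCTG and CAAGTG. These are matches of letters, and nothing was measured of factor binding there.

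Totals were 5013643 to 12924842 counts on day 30 and 7178453 to 8794008 on day 0. For a gene with no read on a day the floor was 3 reads over the 3 libraries of that day together, which is 0.109 CPM (counts per 1000000 of the total) on day 30 and 0.126 CPM on day 0. Libraries of the same day correlated at 0.970 to 0.985 in log2 CPM over 18040 genes, and those of different days at 0.594 to 0.614, across genes, which are not independent. All 8 pan-neuronal markers rose and all 8 pluripotency markers fell, and the arcuate hormone gene POMC reached 1777, 1726 and 1176 CPM on day 30, against 1.16, 1.11 and 0.682 CPM on day 0. AGRP, which marks the other main arcuate feeding neuron, had 6 reads over the day 30 libraries and none on day 0. Day 30 replicate 3 was the shallowest library and stood apart in mesenchymal and endothelial markers: 8 such genes summed to 171, 642 and 4586 CPM in day 30 replicates 1 to 3, against 213 to 303 CPM on day 0.

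The ranges of the 3 libraries of each day did not overlap for 7 of the 8 genes, compared with 50.3% of the 37953 genes with any read. DLX1, DLX2, DLX5, DLX6 and LHX8 were higher on day 30 (29.3% of genes with reads were so), LHX6 and SP8 were lower (21.0%), and SP9 overlapped. Levels were low throughout: the 8 genes together had 304 reads on day 30 and 104 on day 0. DLX1 and LHX6 were the 2 members with enough reads for the test across genes, edgeR's quasi-likelihood test with TMM scaling and a Benjamini-Hochberg adjusted p under 0.05. Each passed its filter only through the day on which it was high and so had to differ, and with 76.6% of 18040 genes called (39.8% higher, 36.8% lower) a call is the usual outcome. The other 6 were not tested there. For them the ratio of pooled CPM, summed reads over summed totals, is given with a 95% interval that covers counting error only, and the exact 2-sided permutation test of CPM cannot go below 0.1 with 3 libraries against 3. It gave 0.1 for each member except SP9, at 0.2. In bulk RNA, a change in the number of cells expressing a gene and a change in RNA per cell cannot be told apart.

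**Figure D1:**
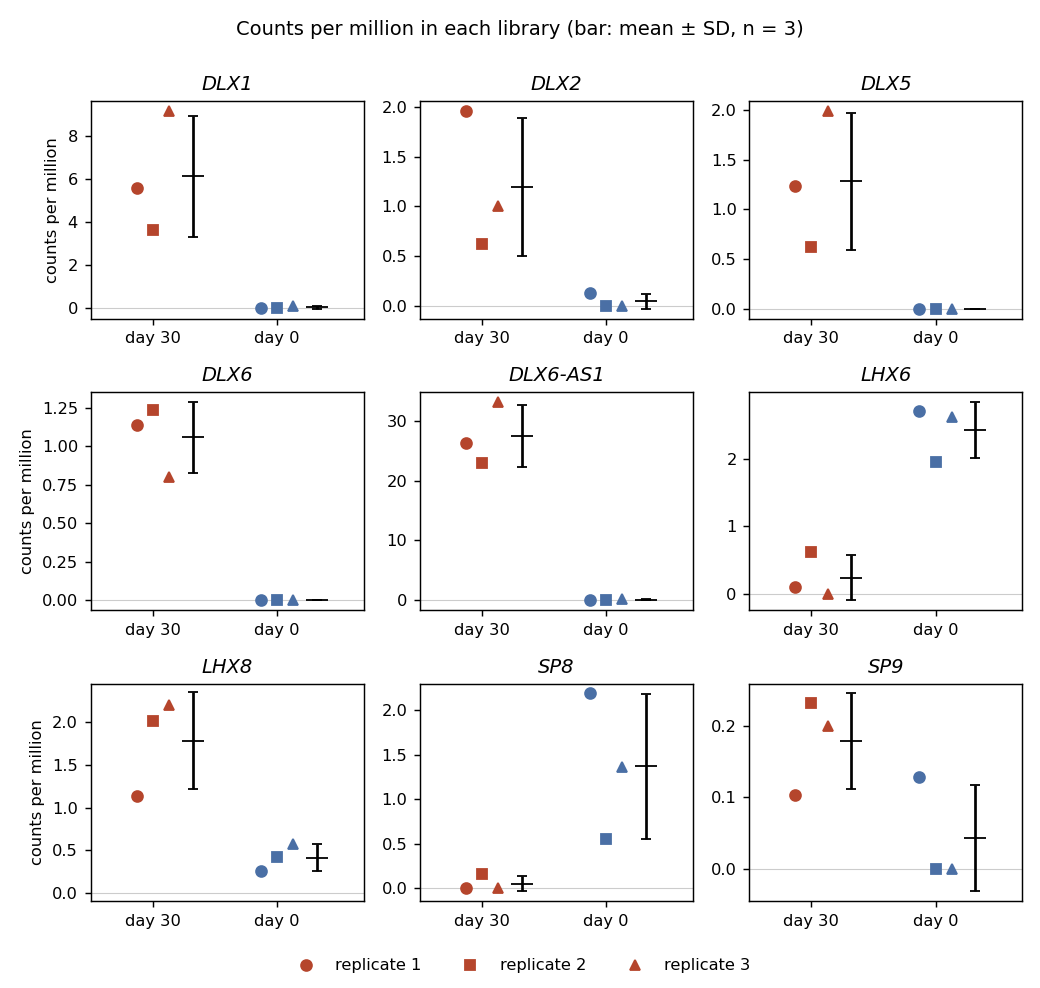
CPM (vertical axes, each with its own scale) of the 8 transcription factor genes and of DLX6-AS1 in each library, day 30 left and day 0 right. Symbols are replicates, and bars are mean ± SD (n = 3). The 4 DLX genes, DLX6-AS1 and LHX8 lie higher on day 30, LHX6 and SP8 lie higher on day 0, and SP9 overlaps.

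DLX1 (ENSG00000144355.15) carried the largest share of DLX reads. It had 54, 47 and 46 reads on day 30, against 0, 0 and 1 on day 0, or 5.57, 3.64 and 9.17 CPM on day 30, against 0, 0 and 0.114 CPM on day 0. Every day 30 library lay far above every day 0 library. The means were 6.13 ± 2.81 CPM on day 30 and 0.0379 ± 0.0657 CPM on day 0 (SD, n = 3 each). The ratio of pooled CPM was 126 (95% counting interval 22.3 to 5021), a wide interval because day 0 held 1 read. The fitted log2 fold change was 6.61 ± 0.74 (approximate SE, edgeR's quasi-likelihood test, adjusted p = 1.22e-05). Without day 0 replicate 3, which held that read, all remaining day 0 libraries were at 0 and the fitted value, then no measure of size, was 8.61.

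DLX2 (ENSG00000115844.11), the partner of DLX1, gave fewer reads, 32 over the day 30 libraries beside 147 of DLX1. It had 19, 8 and 5 reads on day 30, against 1, 0 and 0 on day 0, or 1.96, 0.619 and 0.997 CPM on day 30, against 0.129, 0 and 0 CPM on day 0. The ratio was 27.5 (4.59 to 1119), or 4.78 on the log2 scale, and without day 0 replicate 1, which held the single day 0 read, it was at least 2.62 on that scale. The groups did not overlap, and the day 30 libraries spread over more than a factor of 3. DLX2-DT, a noncoding gene that begins beside DLX2 on the other strand, had no reads in any library.

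DLX5 (ENSG00000105880.7) and DLX6 (ENSG00000006377.11) had no read on day 0 in any library. DLX5 had 12, 8 and 10 reads in the day 30 libraries, which is 1.24, 0.619 and 1.99 CPM, and was at least 8.59-fold higher on day 30 against a floor of 3 reads over the 3 day 0 libraries. DLX6 had 11, 16 and 4 reads, which is 1.14, 1.24 and 0.798 CPM, and was at least 8.88-fold higher. Both genes were detected in every day 30 library at levels near 1 CPM. Within the libraries the 4 DLX genes summed to 9.91, 6.11 and 13.0 CPM on day 30, against 0.129, 0 and 0.114 CPM on day 0. DLX1 made up 56.25%, 59.5% and 70.8% of those DLX reads in day 30 replicates 1 to 3. DLX1 and DLX5 were highest in day 30 replicate 3, the library with the high mesenchymal markers, while DLX2 was highest in replicate 1 and DLX6 in replicate 2. Without replicate 3 the fitted log2 fold change of DLX1 was 6.32 (edgeR's quasi-likelihood test, adjusted p = 1.94e-05), and the lower bound of DLX5 on the log2 scale was 2.81, against 3.10 with it.

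**Figure D2:**
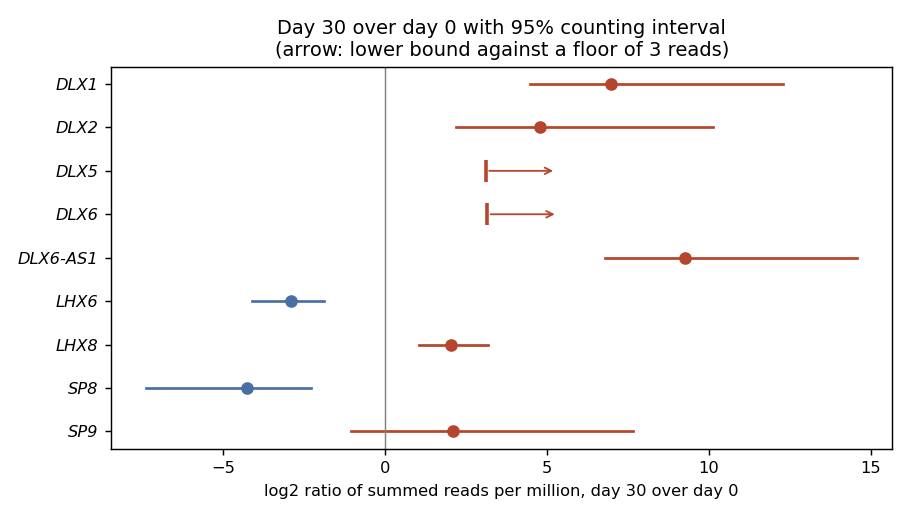
Ratio of pooled CPM, day 30 over day 0, on a log2 axis for each gene. Points are ratios and lines 95% counting intervals. Arrows mark lower bounds against a floor of 3 reads for DLX5 and DLX6, and the interval of SP9 alone spans 0.

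DLX6-AS1 (ENSG00000231764.11) gave far more reads than any protein-coding DLX gene. In the mouse its counterpart Evf2 binds Dlx proteins and acts on the Dlx5 and Dlx6 enhancers. It had 254.5, 296.5 and 166.5 counts on day 30, against 0, 0 and 1 on day 0, or 26.3, 22.9 and 33.2 CPM on day 30, against 0, 0 and 0.114 CPM on day 0. The fitted log2 fold change was 8.82 ± 0.44 (approximate SE, edgeR's quasi-likelihood test, adjusted p = 1.96e-08). Like DLX1, DLX6-AS1 passed the filter only through day 30, where it was high, and so had to differ. As for DLX1, the day 0 level rests on 1 read, and without day 0 replicate 3, which held it, the fitted value was 10.82. DLX6-AS1 was also highest in day 30 replicate 3, and without that library its fitted value was 8.74. Its counts were 23.1, 18.5 and 41.6 times those of DLX6 in the day 30 libraries. The kit keeps strand, but how the counting used strand is not stated in the labels, so reads of DLX6 and of DLX6-AS1 introns on the opposite strand may not be separated. Summed into 1 entry, the pair had a log2 fold change of 8.88. A small structured RNA entry, RF01778, shares 141 exonic bases with DLX6-AS1 and had 4.5 counts on day 30.

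**Figure D3:**
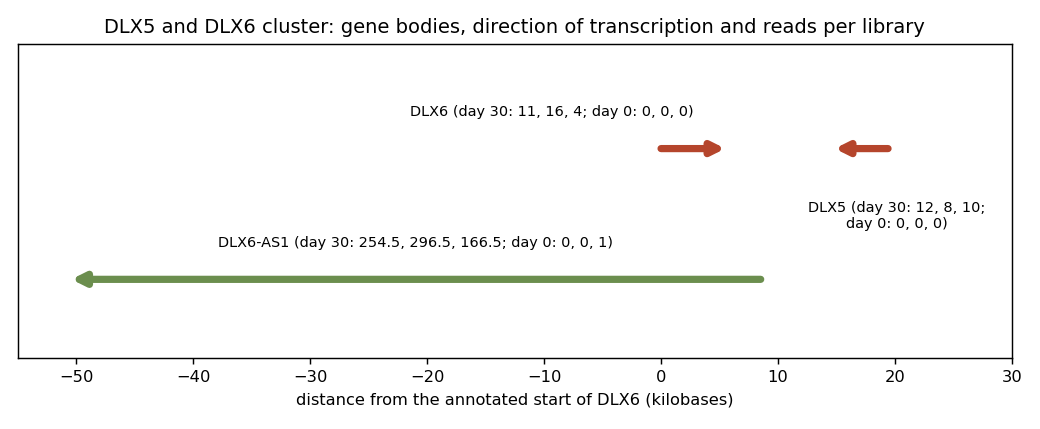
Map of the DLX5 and DLX6 cluster, drawn to scale by distance from the annotated start of DLX6 in kilobases (horizontal axis). Arrows are gene bodies and point in the direction of transcription, with the reads of each library beside them. DLX6-AS1 covers DLX6 on the other strand and holds 717.5 counts over the day 30 libraries, against 31 for DLX6 and 30 for DLX5.

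The LIM homeodomain pair moved in opposite directions. LHX6 (ENSG00000106852.16, chr9:122202577-122229626, minus strand) had 1, 8 and 0 reads on day 30, against 21, 14 and 23 on day 0. That is 0.103, 0.619 and 0 CPM on day 30, against 2.71, 1.95 and 2.62 CPM on day 0, with no overlap. The means were 0.241 ± 0.332 CPM on day 30 and 2.42 ± 0.413 CPM on day 0 (SD, n = 3 each). The fitted log2 fold change was -2.98 ± 0.58 (approximate SE, edgeR's quasi-likelihood test, adjusted p = 0.000716), and the ratio of pooled CPM was 0.133 (0.0581 to 0.271). Most day 30 reads came from replicate 2, and without it the fitted value was -4.94 (adjusted p = 0.000239, with a range of 0.000239 to 0.00324 over the 6 libraries left out in turn).

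LHX8 (ENSG00000162624.16, chr1:75128434-75161533, plus strand) had 11, 26 and 11 reads on day 30, against 2, 3 and 5 on day 0. That is 1.14, 2.01 and 2.19 CPM on day 30, against 0.258, 0.418 and 0.569 CPM on day 0. The groups did not overlap, the means were 1.78 ± 0.566 CPM on day 30 and 0.415 ± 0.155 CPM on day 0 (SD, n = 3 each), and the ratio was 4.12 (2.06 to 9.14). Antisense entry AC099786.2 shares 507 exonic bases with LHX8 and had 8 reads on day 30 and 2 on day 0.

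The SP pair was near the limit of detection on day 30. SP8 (ENSG00000164651.18, chr7:20782283-20786886, minus strand) had 0, 2 and 0 reads on day 30, against 17, 4 and 12 on day 0. That is 0, 0.155 and 0 CPM on day 30, against 2.19, 0.557 and 1.36 CPM on day 0. The groups did not overlap, the ratio was 0.0521 (0.00605 to 0.204), or -4.26 on the log2 scale, and day 0 libraries differed among themselves by more than 3-fold. Without day 30 replicate 2, which held both day 30 reads, the log2 ratio against the floor was -2.77, an upper bound. SP9 (ENSG00000217236.2, chr2:174334946-174338492, plus strand) had 1, 3 and 1 reads on day 30, against 1, 0 and 0 on day 0. Its ratio of 4.29 had an interval of 0.481 to 203, so no difference was detectable at this depth. Without day 0 replicate 1, which held the single day 0 read, the log2 ratio against the floor was -0.054, a lower bound.

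With no filter on low counts, the members' differences could be tested, at the price of many genes with few reads. Then edgeR's quasi-likelihood test called 5 members higher and 2 lower (24.4% and 20.5% of 37507 genes, 44.9% in all), and DESeq2 without a filter called 5 higher and 2 lower (28.6% and 26.4% of 26591 genes, 55.0% in all). The 5 were DLX1, DLX2, DLX5, DLX6 and LHX8, and the 2 were LHX6 and SP8. P-values of edgeR's quasi-likelihood test without the filter were far below those with it, at nearly the same fold changes. The adjusted p of DLX1 was 9.01e-23, against 1.22e-05 with the filter, and that of LHX6 was 2.36e-07, against 0.000716. The unfiltered p-values are therefore not on the scale of the main test, and the reason was not tested. The adjusted p of LHX8 was 0.00223 with edgeR and 0.0320 with DESeq2, the highest of the 7 by either tool, and that of SP9 was 0.419 with edgeR, while DESeq2 gave none for it. The DESeq2 fit without a filter was chosen after the data had been seen.

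Per length of exon the order of the genes on day 30 was DLX1, DLX6-AS1, DLX5, LHX8, DLX2, DLX6, SP9, LHX6 and SP8. The scale is RPKM, that is, CPM divided by the exon length in kilobases. DLX1 averaged 1.68 ± 0.769 RPKM and DLX6-AS1 1.65 ± 0.315 RPKM (SD, n = 3), and their order changed between libraries, although DLX6-AS1, with the longer exons, had the higher CPM. DLX5 averaged 0.735 ± 0.394, LHX8 0.448 ± 0.142, DLX2 0.401 ± 0.233 and DLX6 0.306 ± 0.0668 RPKM (SD, n = 3 each), and these 4 overlapped in range. SP9, LHX6 and SP8 averaged 0.0698, 0.0419 and 0.0139 RPKM, below the other members in every library. DLX1 exceeded 44.3% of 19855 protein-coding genes on day 30. NKX2-1, the ventral regulator upstream of LHX6 and LHX8 in the mouse, averaged 16.7 ± 2.02 RPKM on day 30, and ISL1 averaged 77.0 ± 9.50 RPKM (SD, n = 3 each).

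**Figure D4:**
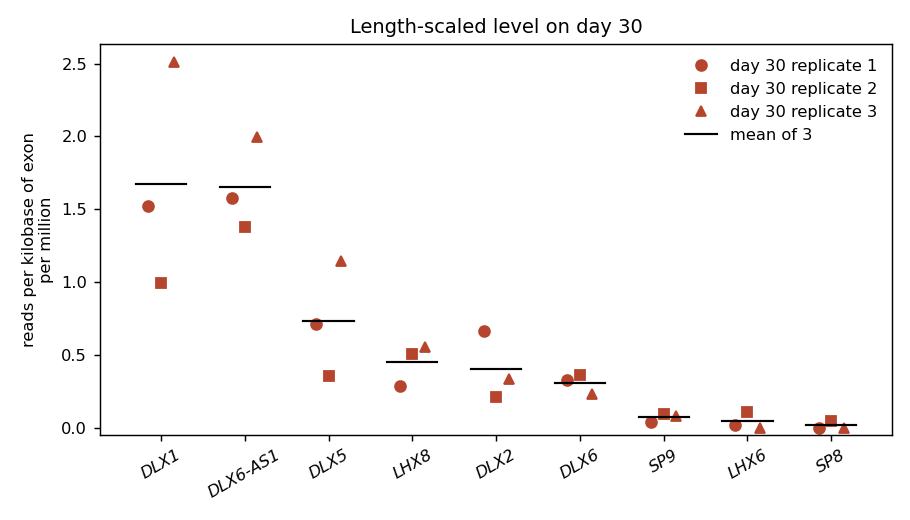
Length-scaled level in RPKM (vertical axis) of each gene in the 3 day 30 libraries. Symbols are replicates and lines the mean of 3. DLX1 and DLX6-AS1 lie highest and overlap, DLX5, LHX8, DLX2 and DLX6 overlap, and SP9, LHX6 and SP8 lie near 0.

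Likeness of pattern was measured as the root mean square difference of centred log2 CPM over the 6 libraries, among 17933 genes outside all lists. The rule used the mean of the tested members, DLX1 and LHX6, which moved oppositely and so gave a profile with a small rise, and its nearest genes were AP4S1, LINC03073, PITPNA, TM6SF2 and C4orf33 (0.0455 for the closest). For DLX1 alone, a profile chosen after its values had been seen, the nearest named genes were EPHB3 (0.26), SLC12A5 (0.26), ASIC4 (0.26) and AFF3 (0.28). Their log2 fold changes were between 4.34 and 8.47. EPHB3 is an ephrin receptor, SLC12A5 the neuronal potassium-chloride cotransporter and ASIC4 an acid-sensing channel subunit.

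Relatives of the 8 genes in the same families moved in both directions. Of 19 paralogs 9 were tested, of which 2 rose, 5 fell and 2 did not pass, with a median log2 fold change of -0.61 beside 0.08 over all tested genes. Of all 18040 tested genes 39.8% rose and 36.8% fell. ISL1, a LIM homeodomain factor of arcuate and cholinergic neurons, rose by 9.86 (edgeR's quasi-likelihood test, adjusted p = 1.50e-09), with 230, 245 and 191 CPM on day 30, against 0.387, 0.279 and 0 CPM on day 0. LHX5 rose by 5.66. LHX4 fell by 4.90, with 0.310, 0.232 and 0.199 CPM on day 30, against 7.48, 6.69 and 8.30 CPM on day 0. SP1, SP3 and SP4 fell by 1.65, 0.83 and 0.61. The remaining DLX genes were barely seen: DLX3 had 1 read on day 30 and 3 on day 0, and DLX4 had 1 on day 30 and 7 on day 0.

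Regulators of the ventral forebrain were mostly higher on day 30. Of 32 such genes 26 were tested, of which 18 rose, 4 fell and 4 did not pass, with a median of 3.96, the same with genes at 0 on day 0 set to their lower bounds. These counts stand beside 39.8% higher and 36.8% lower over all tested genes, and the list was chosen with earlier results known. NKX2-1 had 54.6, 58.4 and 45.9 CPM on day 30 and no read on day 0, at least 433-fold higher. SIX3, a factor of the anterior forebrain, had 55.0, 52.6 and 42.1 CPM on day 30, against 0.387, 0 and 0.114 CPM on day 0. The cofactors of LIM homeodomain proteins moved unequally. LMO1 rose by 7.58, LMO3 by 4.42 and LDB1 by 0.60, while LMO4 fell by 0.38 and LDB2 by 0.42 (edgeR's quasi-likelihood test, adjusted p at most 0.0278 for these 5). ZFHX3 rose by 5.43, ZEB2 by 4.11, PROX1 by 3.20 and ST18 by 7.94. LMO1 and ST18 each had 0.258, 0 and 0.114 CPM on day 0, so the sizes of their rises rest on few reads. ETV1 fell by 2.83 and SATB1, which acts downstream of Lhx6 in mouse interneurons, fell by 0.88. Genes of the list called lower numbered 3 when libraries were scaled by total counts and 2 without day 30 replicate 2.

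Both GSX genes, homeodomain factors that act before the DLX genes in mouse progenitors, were picked out after their values had been seen. GSX2, which specifies the lateral ganglionic eminence, had 22 reads on day 30 and none on day 0, and GSX1 had no read in any library.

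Genes that GABAergic neurons use to make and degrade GABA were higher on day 30. Of 26 GABA and interneuron effectors 21 were tested, of which 16 rose, 3 fell and 2 did not pass, with a median of 3.01, the same with genes at 0 on day 0 set to their lower bounds. Over all tested genes 39.8% rose and 36.8% fell. GAD1, which makes GABA, had 60.5, 45.7 and 78.2 CPM on day 30, against 1.68, 0.557 and 0.569 CPM on day 0 (log2 fold change 5.92). GAD2, its synaptic counterpart, rose by 10.14 and the GABA-degrading enzyme ABAT by 5.66. The neuropeptide gene SST, which marks a class of interneurons and also hypothalamic neurons, had 2083, 2719 and 1617 CPM on day 30, against 0.644, 0.139 and 0.341 CPM on day 0. RELN rose by 10.00, KCNC1 by 8.62 and CHODL by 2.96, while KIT fell by 3.35. GAD2 and KCNC1 had at most 0.139 CPM in any day 0 library, so the sizes of their rises rest on very few reads. PVALB, the marker of the other main class of LHX6-derived interneurons, had no read in any library, and NPY had 19 reads on day 30 and none on day 0.

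**Figure D5:**
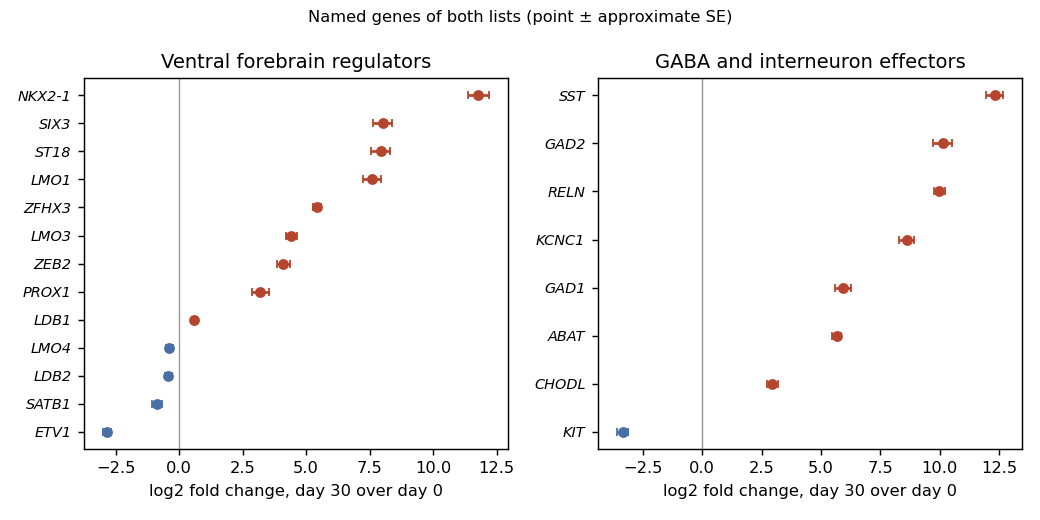
Log2 fold change, day 30 over day 0 (horizontal axis), of the ventral forebrain regulators and of the GABA and interneuron effectors that the text gives by the rule of size of change or level. Points are fitted values ± approximate SE, and all passed. The value of NKX2-1, which had no read on day 0, depends on the prior count and is not a measure of size. Those of GAD2, KCNC1, LMO1 and ST18 rest on few day 0 reads. Most points lie right of 0, with SST, GAD2 and NKX2-1 above 10, and ETV1, SATB1, LMO4, LDB2 and KIT lie left of it.

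Cholinergic genes, the set that mouse Lhx8 and Isl1 switch on, were higher on day 30. All 5 that could be tested of 6 rose, beside 39.8% of all tested genes, with a median of 5.64. The vesicular acetylcholine transporter SLC18A3 had 22.9, 19.9 and 16.7 CPM on day 30, against 0.129, 0 and 0 CPM on day 0. Of 15 pallial and glutamatergic genes 4 were tested, of which SLC17A6, the glutamate transporter of subcortical neurons, rose by 8.49 and 3 fell. SLC17A6 had 0.129, 0 and 0 CPM on day 0, so the size of its rise rests on very few reads. EMX1, a factor of the dorsal telencephalon, had no read on day 30 and 57 on day 0, at least 22.1-fold lower. Of 18 hypothalamic genes 8 were tested, of which 6 rose, 1 fell and 1 did not pass, beside 39.8% higher and 36.8% lower over all tested genes. OTP had 78.1, 69.7 and 66.0 CPM on day 30 and no read on day 0. Without day 30 replicate 3 or day 0 replicate 2 the hypothalamic genes called lower numbered 2.

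Markers of cells other than neurons in which DLX genes are also active were low but not absent. Of 12 genes of neural crest, placode and bone 4 were tested, of which 2 rose, 1 fell and 1 did not pass (all tested genes: 39.8% rose, 36.8% fell). The list summed to 18.3, 17.1 and 42.9 CPM on day 30, against 9.54, 13.4 and 18.3 CPM on day 0, and each of its genes had reads on day 30. PRRX1, a factor of limb and head mesenchyme, had 8.57, 6.19 and 14.4 CPM on day 30, against 0, 1.25 and 0 CPM on day 0. SOX10, which defines early neural crest and its glia, fell by 3.73 but was low on both days. It had 0.103, 0 and 0.399 CPM on day 30, against 2.19, 1.25 and 1.25 CPM on day 0. The crest genes called lower numbered 3 without day 30 replicate 3, 2 without day 0 replicate 1 or 2, and 0 without day 0 replicate 3.

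Of 8 mesenchymal and endothelial genes 3 were tested and rose (39.8% of all tested genes rose), led by the collagen gene COL3A1 with 16.2, 73.2 and 902 CPM in day 30 replicates 1 to 3, against 1.42, 24.1 and 5.00 CPM on day 0. Without replicate 3, 1 gene of the list was called higher. LHX8, like DLX1, DLX5 and DLX6-AS1, was highest in replicate 3, and its log2 ratio was 1.96 without that library, against 2.04 with it. Glial genes summed to 33.4 to 60.7 CPM on day 30, against 167 to 225 CPM on day 0, and of 10 such genes 6 were tested, of which 5 fell (36.8% of all tested genes fell). Of 6 choroid plexus and ependymal genes 2 were tested: AQP1 rose by 6.88 and FOXJ1 fell by 3.24. In this list 2 genes were called lower when day 30 replicate 1, 2 or 3 or day 0 replicate 3 was left out.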

How the data were processed

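RNA of H9 cells was measured in 3 libraries of day 30 and 3 of day 0. Per the labels' protocols, total RNA was depleted of ribosomal RNA and made into stranded libraries. The submitters' processing notes name FastQC 0.11.9 and the build hg38. No label names the aligner, the counter or its strand setting. Values are expected counts per gene as deposited by the authors, not normalized: 83.7% of values above 0 are whole (within 1e-06), and the others were rounded for the tests. The plan assumed counts or rounded expected counts. Columns of values not used numbered 0.

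Of 61853 entries 23900 had no reads, 42092 were given a symbol and 58298 (94.3%) matched GENCODE 29, the source of positions and exon lengths. CPM is the count scaled to a library total of 1000000, and RPKM is CPM divided by the union of a gene's exons in kilobases. Differences were tested in R 4.3.3 with edgeR 4.0.16 (quasi-likelihood test, TMM, filterByExpr, which left 18040 genes), 2-sided, with Benjamini-Hochberg adjustment and a threshold of 0.05. Genes near 0 on 1 day passed filterByExpr only through the other day, so their calls and p-values are no independent support. Alternatives were DESeq2 1.42.0, other scalings, filters and rounding, and each library left out. Ratios carry an exact binomial interval at 95%, and for a day without reads 3 counts over its libraries served as the floor. Intervals and floors cover counting error only, since reads without molecular identifiers are not independent molecules. The scripts were tested on simulated counts.

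The members and all 13 lists (172 genes) were chosen with earlier results of these data known. Named genes are the members, the noncoding genes of the DLX clusters, of each list the largest rise and fall past the threshold, in the ventral forebrain and GABA lists also those at 20 CPM or more on either day, and the 5 genes closest in pattern. Other list genes named were chosen after their values had been seen. Some genes that the rule names are not reported here. No protein sequence was used here.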

Additional observations from a re-analysis of the deposited data

How the results depend on the processing

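Of 526 values under 16 alternative settings, 461 met the criterion for no change: the same direction and side of the threshold for tested fold changes, whatever their size, within the counting interval for untested ratios, within the spread for levels and within 1.5 times for counts. DLX1 stayed between 6.59 and 6.93 and LHX6 between -3.18 and -2.90 under other tools, scalings, filters and the replicate block. Scaling by total counts in place of TMM moved all tested genes by a median of 0.09 and turned neither DLX1 nor LHX6, and the ratios of the other members use total counts already.

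With no filter, log2 fold changes were 4.33 for DLX2, 6.29 for DLX5, 6.20 for DLX6, 1.92 for LHX8 and -4.09 for SP8, and with DESeq2 without a filter, added after seeing the data, 4.60, 5.60, 5.39, 1.92 and -4.42; all passed. Values against a day at 0 depend on the prior count. Under a filter of 1 CPM in 3 libraries LHX8 was also called (1.92). It met that filter only through day 30, where it was high, so the call adds no separate support. DLX6 summed with DLX6-AS1 gave 8.88. Members called were 5 higher and 2 lower with either unfiltered tool, and 2 higher under the 1 CPM filter. Of all genes, unfiltered edgeR called 24.4% higher and 20.5% lower, and unfiltered DESeq2 28.6% and 26.4%. Under the 1 CPM filter 7412 of all 18758 genes tested were called higher and 6795 lower. With no filter, and equally with DESeq2 where marked, list counts were: pallial higher 2 (both), hypothalamic lower 3 (both), crest lower 2 (also under the 1 CPM filter), glia higher 1, mesenchyme higher 5, mesenchyme lower 1 (both), choroid higher 2 (both) and choroid lower 2. The cause was not tested.

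Leaving out each library in turn gave log2 fold changes of 6.11 to 8.61 for DLX1, -4.94 to -2.59 for LHX6 and 8.32 to 10.82 for DLX6-AS1, and log2 ratios of 2.62 to 5.28 for DLX2, 1.79 to 2.38 for LHX8, -4.60 to -2.77 for SP8, 2.43 to 3.57 for DLX5 and 2.48 to 3.24 for DLX6, both lower bounds, and -0.054 to 2.40 for SP9, the -0.054 without day 0 replicate 1. The values 2.62 for DLX2 and -0.054 for SP9 are lower bounds against the floor, and -2.77 for SP8 is an upper bound. Members called were 1 to 3 higher and 1 to 2 lower. DLX5, LHX8 and SP8, which joined in some of these fits, passed the filter only through the day on which they were high. Their calls there add no separate support. In the same fits 6783 to 7441 of all genes were called higher and 6351 to 6718 lower, with 18404 to 19189 tested. Lists called lower ranged from 2 to 4 for ventral regulators, 1 to 2 for hypothalamic, 0 to 3 for crest and 1 to 2 for choroid genes, and mesenchymal genes called higher from 1 to 4.

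The replicate numbers share no stated origin, and same-numbered libraries deviated together with correlations of 0.075, -0.0040 and -0.052, so the numbers were not read as pairs. With the replicate block 6921 genes were higher and 6415 lower, against 7186 and 6641 without it, DLX1 was 6.73 and LHX6 -3.09. Depth limits the members: 6 of the 8 had too few reads for the filter, and day 0 levels of the DLX genes rest on at most 1 read.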
